A study of Mus musculus with 24 samples.

Results

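Chst8, Kctd15 and Pepd are 3 protein-coding genes that lie on the same side of Cebpa, the gene of the transcription factor C/EBPα, on mouse chromosome 7. They were taken as all probes that the array annotation gives to these symbols, which was 1 probe per gene: 3 genes of the 19057 named on the array, and 3 probes of 45281. The 3 genes were chosen by their differences between knockout and control in the 4 sets of arrays described next, so those values are given as a description, with no p-value, and where the fit over all probes called a member the call supports nothing. All 3 probes read above background on all 24 arrays, and none was lost to the filter on dim probes.

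The series measured RNA of whole fat from the subcutaneous depot of C57BL/6J mice. It used 24 Illumina BeadChip arrays, on which labelled cRNA binds to probes and is read as brightness. Its title places the question in mature adipocytes in the living animal: which genes depend on C/EBPα and which on PPARγ. There were 8 groups of 3 arrays, in 4 sets of 6, each set being a knockout group with its own control littermates. Doxycycline was given in the food. Knockouts named Adn-C/EBPα-/- ate doxycycline chow for 3 days, doxycycline high fat diet (HFD) for 3 days, or the same HFD for 1 month, and knockouts named Adn-PPARγ-/- ate doxycycline chow for 3 days. Mice were 10 weeks old in the sets at 3 days and 14 weeks old in the set at 1 month. The genotype field gives the knockout name for controls too, so groups were taken from the sample titles. The alleles, the recombinase and the promoter behind the name Adn were not given in the sources used here. Nothing in the labels says that the 3 arrays of a group came from separate animals, so the spread between them may be technical.

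C/EBPα, a leucine zipper protein that binds DNA as a dimer, and the nuclear receptor PPARγ together drive the formation of fat cells. The genes around Cebpa do not form 1 pathway. Chst8 encodes a sulfotransferase that adds sulfate to N-acetylgalactosamine at the ends of sugar chains, a modification best known from pituitary hormones. Kctd15 encodes a BTB domain protein that inhibits the transcription factor AP-2 and neural crest formation in zebrafish, and variants near the human gene are associated with body mass. Pepd encodes prolidase, the enzyme that splits dipeptides ending in proline or hydroxyproline and so returns proline from broken-down collagen. Between Pepd and Cebpa lies Cebpg, which encodes C/EBPγ, a short C/EBP protein that pairs with other leucine zipper proteins.

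The sequences before the transcription starts are shown because the genes share a neighbourhood and did not share a direction. Each is the 250 bases upstream of the start in RefSeq on build GRCm38.p6, written 5′ to 3′ on the gene's own strand, with matches to a searched motif in capitals. The window is chr7:34812712-34812961 (minus strand) for Chst8, chr7:34655510-34655759 (minus strand) for Kctd15, chr7:34912157-34912406 (plus strand) for Pepd and chr7:35056567-35056816 (minus strand) for Cebpg. Kctd15 has 3 starts in RefSeq, and the one farthest upstream is shown.
Chst8: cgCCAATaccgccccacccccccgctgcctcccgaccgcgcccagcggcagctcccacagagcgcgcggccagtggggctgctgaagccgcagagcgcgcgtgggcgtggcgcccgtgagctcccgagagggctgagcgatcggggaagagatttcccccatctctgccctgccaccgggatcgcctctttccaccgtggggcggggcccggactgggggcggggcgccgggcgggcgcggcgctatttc
Kctd15: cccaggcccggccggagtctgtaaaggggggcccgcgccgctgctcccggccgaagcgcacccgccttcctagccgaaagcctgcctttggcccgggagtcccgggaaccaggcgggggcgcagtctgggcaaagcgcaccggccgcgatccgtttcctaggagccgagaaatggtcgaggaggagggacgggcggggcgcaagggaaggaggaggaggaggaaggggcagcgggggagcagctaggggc
Pepd: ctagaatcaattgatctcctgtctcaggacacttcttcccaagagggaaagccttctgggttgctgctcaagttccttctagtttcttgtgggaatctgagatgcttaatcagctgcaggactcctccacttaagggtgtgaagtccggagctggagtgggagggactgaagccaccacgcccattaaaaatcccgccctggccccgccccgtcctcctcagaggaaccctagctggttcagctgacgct
Cebpg: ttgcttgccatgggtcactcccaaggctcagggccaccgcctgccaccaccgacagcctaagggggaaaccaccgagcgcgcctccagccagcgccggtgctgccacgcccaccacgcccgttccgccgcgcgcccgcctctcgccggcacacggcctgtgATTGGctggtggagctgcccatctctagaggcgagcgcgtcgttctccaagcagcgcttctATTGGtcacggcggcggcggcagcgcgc
A set of 5 motifs was searched on both strands: the C/EBP motif TTGCNNAA, its palindromic form TTGCGCAA, the nuclear receptor direct repeat (copies of AGGNCA spaced by 1 base), the single element AGGTCA, and the CCAAT box. The palindrome is a case of the C/EBP motif, and the single element can lie inside the direct repeat. Over 32851 windows of the same length, 9.56% held TTGCNNAA, 0.164% TTGCGCAA, 0.338% the direct repeat, 14% AGGTCA and 33.8% CCAAT. The Chst8 window held 1 CCAAT box near its upstream end. The Cebpg window held 2, both on the opposite strand, where they read ATTGG. The Kctd15 and Pepd windows held no match to any of the 5, nor did the windows of the other Kctd15 starts. The Chst8 window was 75.6% G and C, that of Kctd15 72.4%, that of Cebpg 70.8% and that of Pepd 54.4%, against a median of 52.4% over all windows. A match is a description of the letters, and its absence says only that these letters are not in this window.

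The Cebpa probe was read as a check of the knockout and control labels within a set. It fell in each C/EBPα knockout group, to 48.4% of the background-corrected signal of the controls on chow (log2 fold change -1.0 ± 0.14 SE, adjusted p = 0.00207 by limma with Benjamini-Hochberg adjustment, as in all tests below), to 21.3% at 3 days of HFD (-2.08 ± 0.14, adjusted p = 2.64e-08) and to 7.39% at 1 month of HFD (-3.47 ± 0.14, adjusted p = 8.33e-13). It also fell in the PPARγ knockout, to 37.5% (-1.38 ± 0.14, adjusted p = 2.27e-06). A fall of this probe alone therefore does not tell the 2 knockouts apart. Of the 3 Pparg probes, 2 rose in that knockout (log2 fold changes 1.10 and 1.24) and 1 fell (-1.07). In the C/EBPα knockout at 1 month of HFD all 3 fell (-0.54, -0.60 and -1.58, limma adjusted p = 0.00244, 0.034 and 1.12e-07). At 3 days of HFD 1 of them fell (-1.18, limma adjusted p = 0.000106), the others having an adjusted p of 0.0731 and 0.547. On chow the smallest adjusted p of the 3 was 0.158. Whether each probe lies in the deleted part of its gene was not given in the sources used here, and a probe outside it would check nothing. Arrays of a group correlated at 0.992 to 0.997 over log2 deposited intensities of all probes of the array.

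Among 32981 probes that passed the filter, 0.825% differed in the C/EBPα knockout on chow, 1.19% at 3 days of HFD, 11.8% at 1 month of HFD and 5.54% in the PPARγ knockout. A probe is called here when its adjusted p over all of them is under 0.05. Of the 3 member probes, 0 were called in the C/EBPα knockout on chow, 2 at 3 days and 2 at 1 month of HFD, and 1 in the PPARγ knockout. The called ones were Chst8 higher and Kctd15 lower at both HFD times, and Pepd lower in the PPARγ knockout. Since these contrasts chose the genes, nothing is read from these counts. Groups that did not overlap were more common over the array. All 3 knockout arrays lay above all 3 controls for 8.24% of tested probes on chow, 7.73% at 3 days and 14.5% at 1 month of HFD, and 12.8% in the PPARγ set. They lay below for 7.17%, 8.45%, 13.6% and 11.7%.

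**Figure D1:**
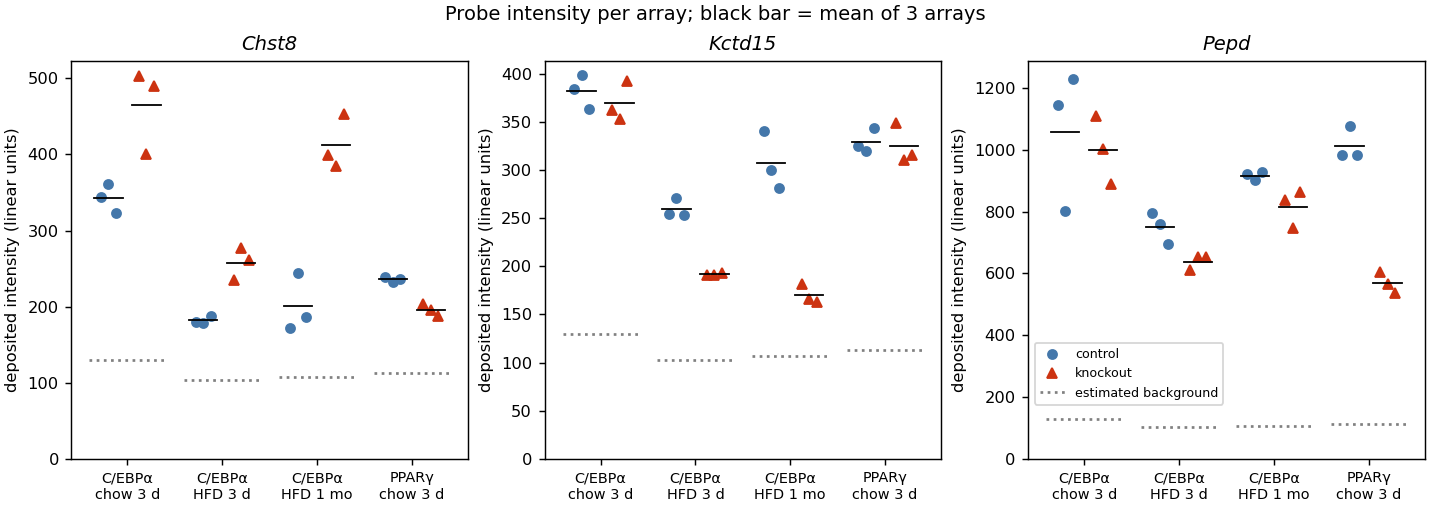
Deposited intensity (linear units) of the Chst8, Kctd15 and Pepd probes on each of the 24 arrays, by set; circles are controls, triangles knockouts, black bars the mean of 3 arrays and dotted lines the estimated background of the set. Chst8 triangles lie above the circles in the 3 C/EBPα sets and below them in the PPARγ set, Kctd15 triangles lie below the circles in the HFD sets, and Pepd triangles lie far below the circles in the PPARγ set. Sets were normalized separately, so heights are to be compared only within a set.

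Chst8, the sulfotransferase, read higher in the C/EBPα knockouts and lower in the PPARγ knockout. On chow the 3 control arrays of the C/EBPα set read 345, 361 and 323 intensity units and the 3 knockout arrays 503, 401 and 491. The groups did not overlap, and knockout replicate 2 lay closer to the controls than to the other knockout arrays. The means were 342.6 ± 19.0 and 464.8 ± 55.5 (SD, n = 3), a log2 fold change of 0.61 ± 0.17 (SE) on the scale of log2 corrected signal plus 16.

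After 3 days of HFD the Chst8 controls read 180, 178 and 188 and the knockouts 234, 277 and 261. Every knockout array was above every control array. The log2 fold change was 0.84 ± 0.17, or 1.79-fold on the same scale. At 1 month of HFD the Chst8 controls read 172, 244 and 187 and the knockouts 399, 385 and 453. Control replicate 2 was the highest control, and the lowest knockout array still read 385. The log2 fold change was 1.60 ± 0.17, or 3.03-fold, the largest difference of the gene over the 4 comparisons.

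In the PPARγ set the Chst8 controls read 239, 233 and 237 and the knockouts 204, 196 and 188. All 3 knockout arrays were below the 3 controls, the opposite side from the C/EBPα sets. The log2 fold change was -0.49 ± 0.17. The difference between the PPARγ and the C/EBPα result was not tested, since the gene was picked for these contrasts. Set among all tested probes, the share with a lower fold change than Chst8 was 99.7% in the C/EBPα knockout on chow, 99.8% at 3 days and 99.9% at 1 month of HFD, and 2.84% in the PPARγ knockout.

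Kctd15, the BTB domain protein, read lower in the C/EBPα knockout on HFD and showed overlapping groups on chow. After 3 days of HFD its controls read 255, 271 and 254 and its knockouts 192, 192 and 193. The knockout arrays had an SD of 0.864 units and lay well below the lowest control. The log2 fold change was -0.72 ± 0.11, with 56.7% of the corrected control signal left.

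At 1 month of HFD the Kctd15 controls read 340, 300 and 282 and the knockouts 182, 166 and 163. The groups were far apart again, with the controls more spread (307.4 ± 30.0, SD, n = 3) than the knockouts (170.2 ± 10.1). The log2 fold change was -1.45 ± 0.11, and 31.5% of the corrected signal was left. In whole tissue, fewer cells of a type and less RNA per cell cannot be told apart.

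On chow the Kctd15 controls of the C/EBPα set read 384, 399 and 364 and the knockouts 363, 354 and 393. The groups overlapped, and the log2 fold change was -0.07 ± 0.11. In the PPARγ set the controls read 326, 320 and 344 and the knockouts 349, 310 and 315. These overlapped as well, with a log2 fold change of -0.03 ± 0.11. The share of tested probes with a lower fold change than Kctd15 was 35.1% on chow, 0.528% at 3 days and 0.446% at 1 month of HFD in the C/EBPα knockout, and 42.1% in the PPARγ knockout.

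Pepd, the prolidase gene, read lower in the PPARγ knockout and close to its controls in the C/EBPα knockouts. In the PPARγ set its controls read 983, 1076 and 983 and its knockouts 606, 567 and 536. The highest knockout array was far below the lowest control. The means were 1014 ± 54.2 and 569.7 ± 35.2 (SD, n = 3), a log2 fold change of -0.96 ± 0.13, with 50.7% of the corrected signal left.

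On chow the Pepd controls of the C/EBPα set read 1145, 801 and 1231 and the knockouts 1111, 1004 and 889. The groups overlapped, control replicate 2 being the lowest of all 6 arrays, and the log2 fold change was -0.07 ± 0.13. At 3 days of HFD the controls read 797, 761 and 694 and the knockouts 610, 652 and 653. At 1 month of HFD the controls read 921, 902 and 928 and the knockouts 836, 749 and 864. In both HFD sets all knockout arrays lay below all controls, by a log2 fold change of -0.26 ± 0.13 at 3 days and -0.19 ± 0.13 at 1 month. Such separation held for 8.45% of all tested probes at 3 days and 13.6% at 1 month of HFD, as given above.

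**Figure D2:**
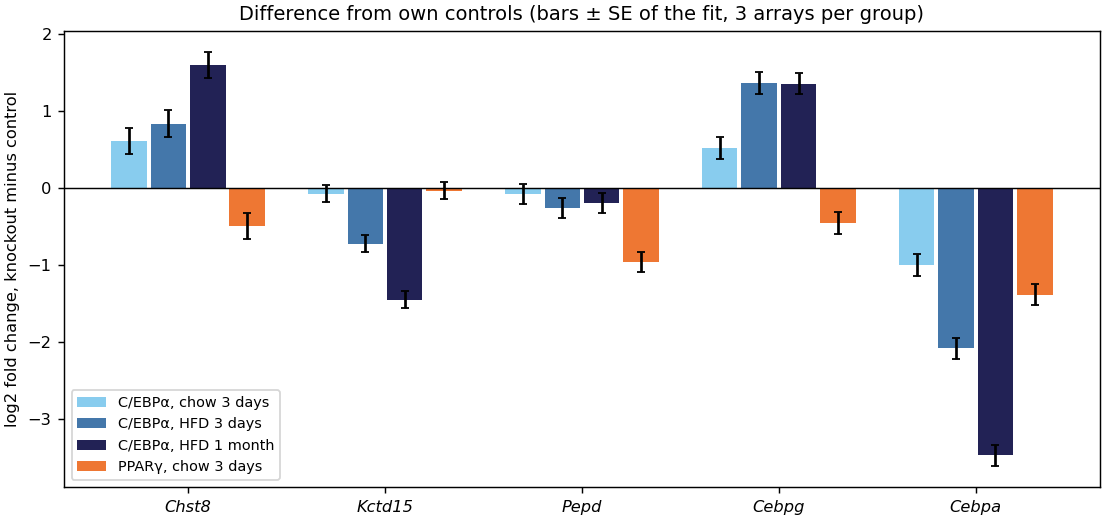
Log2 fold change (knockout minus control, bars) with its SE for Chst8, Kctd15 and Pepd and, for reference, Cebpg and Cebpa, in the 4 comparisons, each with 3 arrays per group. The Chst8 bars run from 0.61 to 1.60 in the C/EBPα knockouts and stand at -0.49 in the PPARγ knockout, Kctd15 is lowest at 1 month of HFD (-1.45) and Pepd in the PPARγ knockout (-0.96).

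Markers of the tissue's cell types differed in several of the same sets. At 1 month of HFD, 8 of 9 tested adipocyte markers fell, with a median log2 fold change of -0.68 and a summed corrected signal of 84300 to 94330 in controls against 51360 to 58420 in knockouts. In the same set 9 of 9 macrophage markers rose (summed signal 19210 to 21240 against 32120 to 42780), as did 5 of 7 stromal markers (22380 to 26910 against 31630 to 34890). In the PPARγ set 8 of 9 adipocyte markers fell (72400 to 80780 against 54270 to 55300), 5 of 9 macrophage markers rose (19460 to 21550 against 25060 to 29960) and 1 of 7 stromal markers rose (26900 to 30460 against 31250 to 34480). At 3 days of HFD 1 of 9 adipocyte markers fell (56900 to 59140 against 48800 to 57310) and 1 of 9 macrophage markers rose (17470 to 23660 against 20930 to 27150), with 4 of 9 in each list at an unadjusted p under 0.05. On chow in the C/EBPα set 1 of 9 adipocyte markers fell (88740 to 93950 against 77040 to 89210), with 4 at an unadjusted p under 0.05. In that set 0 of 9 macrophage markers passed limma's adjusted threshold (2 at an unadjusted p under 0.05), and their summed signal was 24380 to 27660 in controls and 29510 to 31250 in knockouts, with no overlap. Of 7 stromal markers 0 passed it in either of these sets (2 unadjusted in each), with sums of 32550 to 36250 against 33640 to 35390 on chow and 18890 to 23630 against 22990 to 26340 at 3 days of HFD. Of 6 endothelial markers 1 fell at 1 month (3 at an unadjusted p under 0.05), with sums of 3668 to 3965 against 3193 to 3641. None was called elsewhere. At 3 days of HFD 1 had an unadjusted p under 0.05, and the sums did not overlap (3081 to 3129 against 2724 to 3035). Endothelial sums overlapped in both chow sets. Lymphocyte and skeletal muscle lists had 0 called members in each set, and 0 at an unadjusted p under 0.05. Their summed signal varied widely between arrays of a group. Muscle sums at 3 days of HFD were 290.6 to 9537 in controls and 283.8 to 2985 in knockouts. In the PPARγ set they were 8669 to 36410 and 3573 to 21710. Lymphocyte sums at 3 days of HFD were 98.12 to 235.3 in controls and 86.37 to 1238 in knockouts. With this spread, 0 calls do not show equal amounts of these cells. The epithelial list had 0 called members (2 of 4 unadjusted on chow and 1 in the PPARγ set), Krt5 being at background on all 6 arrays of both HFD sets and Krt14 in the set at 1 month. The part of these cell types in the values of Chst8, Kctd15 and Pepd was not tested.

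The chromosome around Cebpa was then read gene by gene, to place the 3 genes among their neighbours. In the RefSeq gene order the 10 protein-coding genes before Cebpa are Uba2, Pdcd2l, Gpi1, Garre1, Lsm14a, Kctd15, Chst8, Pepd, Cebpg and Gm45095, and the 10 after it are Slc7a10, Lrp3, Wdr88, Gpatch1, Rhpn2, Faap24, Cep89, Slc7a9, Tdrd12 and Nudt19. Leaving out the 3 members gives 17 flanking genes, of which 12 had a tested probe; Uba2, Gpi1, Gm45095, Lrp3 and Wdr88 had no named probe. The brightest probe of each gene was used. Of the 12, 0 were called by limma in the C/EBPα knockout on chow (2 at an unadjusted p under 0.05), 1 at 3 days and 3 at 1 month of HFD, and 1 in the PPARγ knockout. Over all 15526 named genes, each by its brightest probe, 0.818% were called on chow, 1.61% at 3 days, 14.8% at 1 month and 7.05% in the PPARγ knockout. The median log2 fold change of the 12 was -0.045 on chow, 0.105 at 3 days, -0.045 at 1 month and 0.03 in the PPARγ knockout, against 0.005, 0.005, 0.009 and 0.012 over all genes.

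Cebpg, which lies beside Pepd and encodes C/EBPγ, rose in both HFD comparisons. At 3 days its controls read 2033, 1653 and 2348 and its knockouts 4965, 5548 and 4508. The log2 fold change was 1.37 ± 0.14 (limma adjusted p = 1.48e-05). At 1 month the controls read 1942, 2831 and 1975 and the knockouts 5953, 5065 and 5605, a log2 fold change of 1.36 ± 0.14 (limma adjusted p = 8.92e-07). The knockout arrays were above the controls in both sets.

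On chow the values of Cebpg were 4458, 5228 and 3880 in controls and 6482, 6343 and 6374 in knockouts, which missed the threshold (0.52 ± 0.14, limma adjusted p = 0.0874). In the PPARγ set they were 2367, 2424 and 2426 against 1735, 1743 and 1905, which missed it on the lower side (-0.45 ± 0.14, limma adjusted p = 0.0772). The sign of Cebpg was thus that of Chst8 in each of the 4 comparisons. The second Cebpg probe gave 0.66 at 3 days and 0.60 at 1 month of HFD (limma adjusted p = 0.00812 and 0.00259), smaller than the brightest probe. The dimmest probe was above background on 0 of 3 control arrays and all 3 knockout arrays of the chow C/EBPα set (means 137.9 and 153.5, limma adjusted p = 0.0111), so no fold is given. It was at or near background in the other sets, where it was not called, and at 1 month of HFD its log2 fold change of -0.15 had the opposite sign to the brightest probe.

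Slc7a10, the next gene on the far side of Cebpa and the gene of a neutral amino acid transporter of fat cells, fell in the PPARγ knockout (-1.10 ± 0.16, limma adjusted p = 0.000188) and at 1 month of HFD (-1.70 ± 0.16, limma adjusted p = 1.96e-07). Its mean intensity went from 1390 ± 71.9 to 699.4 ± 23.6 in the first and from 461.4 ± 29.8 to 206.6 ± 24.8 (SD, n = 3) in the second. It was near its controls on chow (0.02) and at 3 days of HFD (0.12). Faap24, a gene of the Fanconi anaemia DNA repair pathway, fell at 1 month of HFD (-0.77 ± 0.17, limma adjusted p = 0.00339), while its second probe gave -0.45 (limma adjusted p = 0.0618). The mean intensity of its brightest probe went from 167.1 to 136.1, against a background of 107.1. The second probe of Cep89, a centrosome gene, gave -0.35 at 1 month (limma adjusted p = 0.0366), and its brightest probe -0.09. The other 9 flanking genes had no call of their brightest probe in the 4 comparisons.

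**Figure D3:**
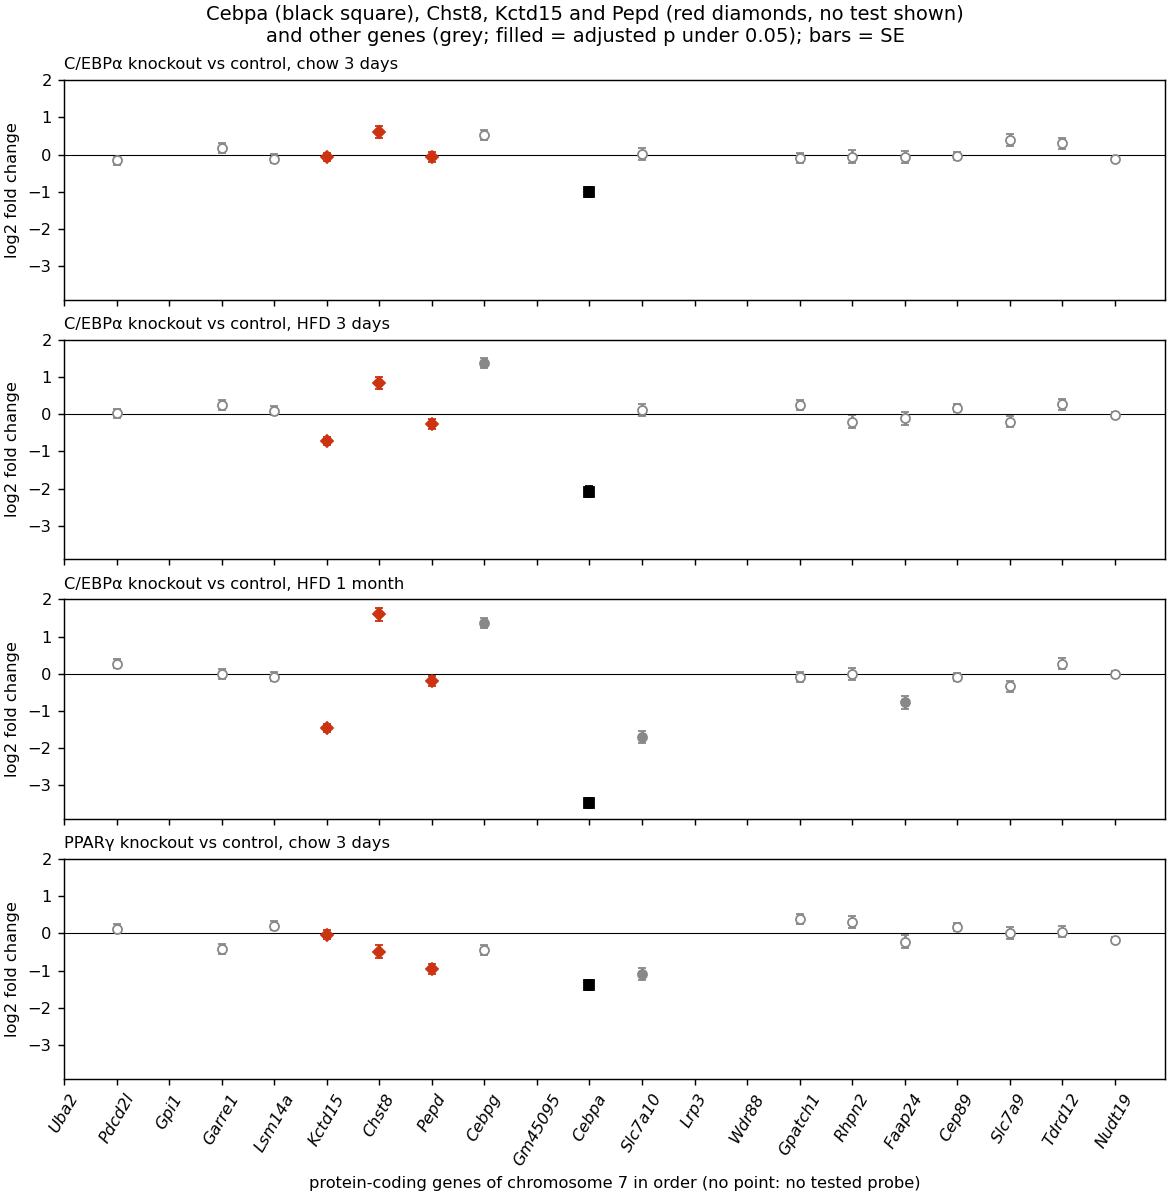
Log2 fold change (knockout minus control) with its SE for the genes on both sides of Cebpa, in chromosome order, 1 panel per comparison; red diamonds are Chst8, Kctd15 and Pepd (no test shown), the black square is Cebpa, grey circles are the flanking genes, filled where the adjusted p was under 0.05. Genes with no circle had no tested probe. Points above and below 0 stand side by side, as Kctd15 (-1.45), Chst8 (1.60), Pepd (-0.19) and Cebpg (1.36) do at 1 month of HFD, and 9 of the 12 flanking genes have no filled circle in any panel.

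Each gene was also set beside its own enzyme or protein family. Over all genes, 0.399% were called higher and 0.419% lower in the C/EBPα knockout on chow, and 0.490% and 1.12% at 3 days of HFD. These shares were 7.71% and 7.12% at 1 month of HFD, and 3.45% and 3.61% in the PPARγ knockout. Of 17 genes for sulfotransferases, their partner glycosyltransferases and sulfate activation, 13 were tested. None of them was called higher in any of the 4 comparisons, though some read higher without a call. On chow in the C/EBPα knockout 0 were called by limma (4 at an unadjusted p under 0.05). Chst8 itself read higher in 3 of the 4, without a call on chow, and these values chose the gene. Chst1, a keratan sulfate sulfotransferase, fell in the PPARγ knockout (-0.96 ± 0.16, limma adjusted p = 0.000816), at 3 days of HFD (-1.27 ± 0.16, limma adjusted p = 0.000185) and at 1 month (-1.76 ± 0.16, limma adjusted p = 1.46e-07). Chst15, which acts on chondroitin sulfate, fell in the PPARγ knockout (-0.69 ± 0.11, limma adjusted p = 0.000501). Chst12, a chondroitin sulfotransferase, fell at 1 month (-1.11 ± 0.13, limma adjusted p = 3.51e-06). Papss2, which makes the activated sulfate these enzymes use, fell at 1 month (-1.0 ± 0.11, limma adjusted p = 1.15e-06) and at 3 days (-0.45 ± 0.11, limma adjusted p = 0.0415). The call at 3 days rested on single arrays and held in 8 of 16 alternative settings. It was lost without control replicate 1 or 2 or knockout replicate 1, 2 or 3 (limma adjusted p = 0.183 without control replicate 2). The family's medians were -0.06 on chow, 0.01 and -0.19 at 3 days and 1 month of HFD, and 0.01 in the PPARγ knockout.

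Of 26 KCTD and AP-2 genes, 19 were tested, and 0 were called by limma in either chow comparison (1 at an unadjusted p under 0.05 in the C/EBPα and 2 in the PPARγ knockout). After 3 days of HFD 1 rose, and at 1 month 2 rose and 1 fell. Kctd14 rose at 1 month (1.40 ± 0.16, limma adjusted p = 2.95e-06) and at 3 days (0.68 ± 0.16, limma adjusted p = 0.0387). The call at 3 days held in 8 of 16 alternative settings. It was lost without control replicate 1, 2 or 3 or knockout replicate 1 or 3 (limma adjusted p = 0.245 without knockout replicate 3). Kctd12, which encodes an auxiliary subunit of the GABA-B receptor, rose at 1 month (0.57 ± 0.16, limma adjusted p = 0.0192), and Kctd21 fell (-0.36 ± 0.11, limma adjusted p = 0.0419). Both of these calls were lost without any 1 of several arrays. For Kctd12 these were control replicate 1 and knockout replicates 2 and 3 (limma adjusted p = 0.142 without knockout replicate 3). For Kctd21 they were control replicates 2 and 3 and knockout replicates 1, 2 and 3 (limma adjusted p = 0.185 without knockout replicate 2). The Kctd21 call held in 8 of 16 alternative settings and that of Kctd12 in 12. The family's medians were 0.05 on chow, -0.05 and -0.01 at 3 days and 1 month of HFD, and 0.02 in the PPARγ knockout, beside -0.72 and -1.45 for Kctd15 itself at the HFD times.

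Of 23 genes of proline and collagen turnover, 20 were tested. In the PPARγ knockout, where Pepd read lower, 7 rose and 0 fell, with a median of 0.21. Among them were Xpnpep2, an aminopeptidase that releases residues before proline (0.63 ± 0.11, limma adjusted p = 0.0011), and Prcp, a prolyl carboxypeptidase (0.35 ± 0.09, limma adjusted p = 0.0302). The Prcp call held in 9 of 16 alternative settings. It was lost without control replicate 1, 2 or 3 or knockout replicate 1 or 2 (limma adjusted p = 0.16 without knockout replicate 2). In that set 5 of 9 macrophage and 1 of 7 stromal markers rose as well, and their part in these values was not tested.

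At 1 month of HFD 6 of the 20 rose and 3 fell, with a median of 0.05. Xpnpep2 (0.95 ± 0.11, limma adjusted p = 3.28e-06) and Prcp (0.64 ± 0.09, limma adjusted p = 5.1e-05) rose again. Prodh, which starts the breakdown of proline, fell (-1.19 ± 0.15, limma adjusted p = 9.67e-06), as did the lysyl hydroxylase gene Plod3 (-0.48 ± 0.09, limma adjusted p = 0.000638). Plod2, another lysyl hydroxylase gene, named after its values were seen, rose at 1 month (0.67 ± 0.13, limma adjusted p = 0.00124) and in the PPARγ knockout (0.70 ± 0.13, limma adjusted p = 0.00204). It also rose at 3 days of HFD (0.55 ± 0.13, limma adjusted p = 0.0416), a call lost without any 1 of 4 arrays, control replicates 1 and 3 and knockout replicates 2 and 3 (0.242 without control replicate 3). Macrophage markers (9 of 9) and stromal markers (5 of 7) rose in this set too. After 3 days of HFD 2 of the 20 rose and 0 fell. On chow 0 were called by limma in the C/EBPα knockout (4 at an unadjusted p under 0.05). The medians were 0.04 and 0.

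The 3 genes differed in how they ran along with Cebpa and with each other over the 24 arrays. For this the mean of its set was taken from each log2 value, and Pearson's r was computed. The arrays share sets, normalization and knockout status, so r mostly carries the knockout differences already given, and it is a description only. With Cebpa, r was 0.895 for Kctd15, -0.798 for Chst8 and 0.505 for Pepd. Within groups, with the group means taken out, the same r were -0.093, -0.442 and -0.09. Chst8 and Kctd15 ran against each other (r = -0.849, and -0.067 within groups), while Pepd had r of -0.05 with Chst8 and 0.237 with Kctd15.

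**Figure D4:**
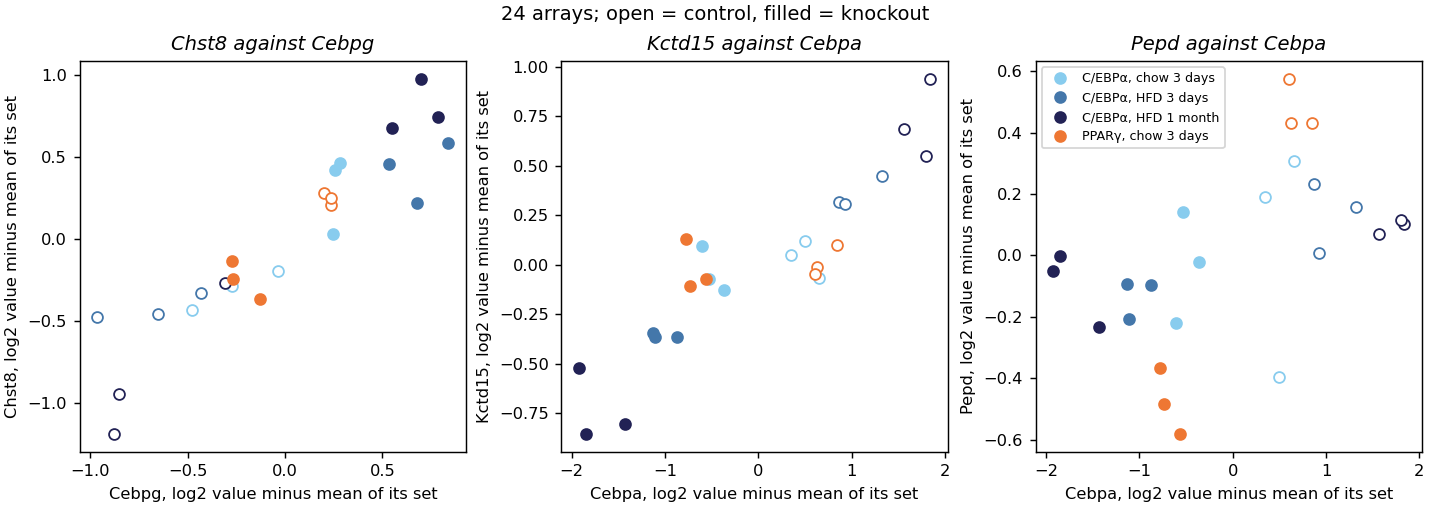
Log2 values with the mean of the set taken out, 24 arrays, for Chst8 against Cebpg, Kctd15 against Cebpa and Pepd against Cebpa; open circles are controls, filled circles knockouts, and colours the 4 sets. Chst8 lies along Cebpg (r = 0.926) in all sets, Kctd15 along Cebpa (r = 0.895) mainly through the 2 HFD sets, and the PPARγ set stands at the ends of the Pepd range.

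The gene most like Chst8 by this measure, out of 15526 named genes tested, was Cebpg (r = 0.926, and 0.644 within groups), followed by Eps8l2 (0.916), Dhrs4 (0.88), Zfp703 (0.869) and Kcna2 (0.868). Those 4 had r of 0.334, -0.029, 0.365 and 0.351 within groups. For Kctd15 they were Cdo1 (0.962), Ctdspl (0.961), Cd1d1 (0.951), Fah (0.95) and Orm1 (0.947), with -0.069 to 0.56 within groups. Orm1 encodes an acute phase glycoprotein and Cdo1 the enzyme that oxidises cysteine. The log2 fold changes of Cdo1 were -0.24 on chow, -0.97 at 3 days and -2.05 at 1 month of HFD and -0.13 in the PPARγ knockout, beside -0.07, -0.72, -1.45 and -0.03 of Kctd15. For Pepd they were Whamm (0.916), Sh3glb2 (0.89), Alad (0.883), Aqp7 (0.876) and Tlcd1 (0.873), with 0.39 to 0.773 within groups. Aqp7 encodes the glycerol channel of fat cells and is one of the adipocyte markers above. Its log2 fold changes were 0.05, -0.23, -0.29 and -0.65 in the same order, beside -0.07, -0.26, -0.19 and -0.96 of Pepd.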

How the data were processed

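The authors deposited linear intensity values, 1 for every probe on every array. Sorted values of arrays in 1 set of 6 agreed to within 0.705 units and differed between sets, so the authors' normalization was by quantiles and by set, and no background had been subtracted; the scanner software was not given in the sources used here. Another deposited table, holding signals before normalization, was left out because its 96 value columns match no sample by name. The background of each set was estimated from the lower side of its intensity peak (103.2 to 130.2). Signals were then corrected by the normexp model of limma, 16 was added and log2 taken, which understates the differences of dim probes. Probes brighter than background (5% false positives) on at least 3 of 24 arrays entered the test (limma 3.58.1, R 4.3.3): 8 group means, a shared spread, two-sided, Benjamini-Hochberg over 32981 probes, each knockout against its own controls. The number of arrays limits the precision.

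The platform annotation gave 1 symbol to 34885 probes and several to 18, and listed no gene for 10378. RefSeq tables of GRCm38.p6 gave symbols, gene order and promoters. The members, lists and tests were chosen with earlier results of these data known. Named are the members, Cebpa, Pparg, all flanking genes, up to 4 called genes per list with the smallest adjusted p, and the 5 genes most like each member. Alternatives covered background, offset, filter, probe choice, normalization, arrays in the fit, replicate block, array weights and each array left out.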

Additional observations from a re-analysis of the deposited data

Results flagged for a closer look

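Chst8 moved to opposite sides of its controls in the 2 knockouts, in every array: log2 fold changes were 0.61 on chow, 0.84 at 3 days and 1.60 at 1 month of HFD in the C/EBPα knockout, and -0.49 in the PPARγ knockout. The brightest Cebpg probe did the same with 0.52, 1.37, 1.36 and -0.45. Its values on chow and in the PPARγ knockout were not called (limma adjusted p = 0.0874 and 0.0772). The other Cebpg probes overlapped their controls in the PPARγ set (-0.16 and -0.01), and the dimmest gave -0.15 at 1 month of HFD. Garre1, 3 genes farther out than Chst8, read lower in the PPARγ knockout in every array (-0.41, limma adjusted p = 0.0608). At 3 days of HFD in the C/EBPα knockout it read higher in every array (0.25, limma adjusted p = 0.514). Neither was called, and its groups overlapped in the other sets. Over all tested probes, all knockout arrays lay above the controls for 8.24% on chow, 7.73% at 3 days and 14.5% at 1 month of HFD. They lay below for 11.7% in the PPARγ set. The differences between knockouts in Chst8, Cebpg and Garre1 were not tested.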

How the results depend on the processing

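These contrasts chose the members, so how often they are called describes the settings and is no evidence of stability. Over 16 settings each (10 alternatives and 6 with 1 array left out), Pepd in the PPARγ knockout and Kctd15 at both HFD times were called in all, as was Chst8 at 1 month of HFD. Chst8 at 3 days of HFD was called in 14, and not without control replicate 2 or knockout replicate 3. Without background correction the differences were smaller: Chst8 1.05 and Kctd15 -0.85 at 1 month, Chst8 0.50 and Kctd15 -0.44 at 3 days, Chst8 -0.27 in the PPARγ knockout. Pepd on chow and Kctd15 in the PPARγ knockout, neither called, each kept their sign in 13 of 16. For Kctd15 a value that rounded to no difference counted as not kept. The estimated background was 103.2 to 130.2 units, a large part of many Chst8 and Kctd15 readings.

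The count of probes called on chow in the C/EBPα knockout (272) was the least stable: 463 without background correction, 690 with an offset of 50, 11 with an offset of 1, 415 without the filter, 161 with 1 probe per gene (fewer tests), 64 with quantile normalization over all arrays, 1 with the 6 arrays alone and 35 with array weights. At 3 days of HFD (392) it was 83 with the 6 arrays alone and 809 with array weights, in the PPARγ knockout (1826) 2747 with array weights, and at 1 month (3880) 2581 with 1 probe per gene. Member probes called were 1 on chow without background correction and with an offset of 50 (Chst8), and 2 in the PPARγ knockout with the 6 arrays alone (Chst8 and Pepd). Flanking genes called were 1 on chow with an offset of 50. In the PPARγ knockout they were 2 without background correction, with an offset of 50, with 1 probe per gene and with the 6 arrays alone, and 3 with array weights. The causes of these shifts were not tested, and neither was the part of the smaller number of tests with 1 probe per gene.

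With 1 array left out, probes called ranged from 953 (without control replicate 2) to 1452 in the PPARγ knockout, from 199 (without knockout replicate 3) to 499 at 3 days, and member probes called from 0 to 1 on chow (Chst8 without knockout replicate 2) and from 1 to 2 at 3 days.

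The replicate numbers did not pair the arrays: deviations of same-numbered control and knockout arrays correlated at -0.211 to 0.059. With the replicate number as a block, 60 probes were called on chow and 253 at 3 days of HFD, and the members called did not differ. The calls of Prcp in the PPARγ knockout, Papss2 and Plod2 at 3 days and Kctd21 at 1 month of HFD were lost under the block. Not every array correlated best with its own number.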
